A study of Mus musculus with 6 samples.

Results

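Heat shock chaperones of the cytosol and of mitochondria were followed in RAW 264.7 cells, a mouse macrophage-like line, after transfection with an antisense oligonucleotide. The set of 45 genes was chosen by gene symbol and holds the factors Hsf1 and Hsf2, HSP90, HSP70 and HSP110 chaperones with their cofactors, DNAJ proteins, subunits of the chaperonin CCT, mitochondrial chaperones and small heat shock proteins. Of the 45 genes, 42 had a probe set listed with that gene alone and could be read, among 22180 such genes on the arrays. Hsf1 and Hsp90ab1 are not listed in the annotation used here, and Dnaja1 shares its probe set with another gene, so these 3 were not analysed here. The 3 Mist-targeted samples carried 50 nM of a locked nucleic acid GapmeR, which directs RNase H to its target, against the long noncoding RNA Mist. The 3 Control samples carried the same amount of a GapmeR without a target. Both groups were transfected with Lipofectamine RNAiMAX and harvested after 48 h. The labels name 1 GapmeR per group, so the target and the particular oligonucleotide cannot be told apart, and whether the 3 replicates of a group were grown separately is not stated.

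Chaperones of the HSP70 class bind exposed hydrophobic stretches of proteins and release them in a cycle of ATP hydrolysis. DNAJ proteins deliver substrates and stimulate that hydrolysis, while HSP110 proteins, BAG proteins and HSPBP1 exchange the nucleotide. HSP90 acts later on kinases and receptors with a set of cochaperones, CCT folds actin and tubulin inside a closed barrel, and HSP60 with HSP10 does the same for proteins imported into mitochondria. On heat or proteotoxic stress the transcription factor HSF1 binds heat shock elements and induces many of these genes, HSPA1A and HSPA1B most of all, while others such as HSPA8 are made at all times.

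None of the 42 chaperone genes passed the test between Mist-targeted and Control cells. With limma and an adjusted p under 0.05 over all probe sets, 0 rose and 0 fell, where 0.415% of all genes passed (0.212% rose and 0.203% fell). At an unadjusted p under 0.05 there were 6, against a background of 11.0% of all genes: Ahsa1, Hspa1a and Bag1 were on the higher side (5.24% of all genes) and Hspa4l, Dnajb2 and Hspa9 on the lower (5.79%). Log2 differences, Mist-targeted minus Control, lay between -0.36 for Hspa4l and 0.28 for Bag1, and their standard errors lay between 0.077 and 0.16. Of the 42, 31 had a positive difference, or 73.8%, against 52.2% of all genes. The median over the 42 was 0.086, against 0.0069 over all 22180 genes.

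The 95% interval of the difference, not adjusted for the number of genes, lay within 1.5-fold in either direction for 41 of the 42 genes. These intervals rest on the spread between arrays alone, and no measure of background was at hand for the dim genes among them. The exception was Hspa1b, whose interval reached 1.52-fold higher. On the lower side the farthest limit was that of Hspa4l, at 1.46-fold lower. The smallest difference among the genes called on these arrays was 0.59 on the log2 scale, beyond every chaperone gene read here. Leaving out single arrays moved the difference by more than 1.5 times for 27 of the 42 genes.

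**Figure D1:**
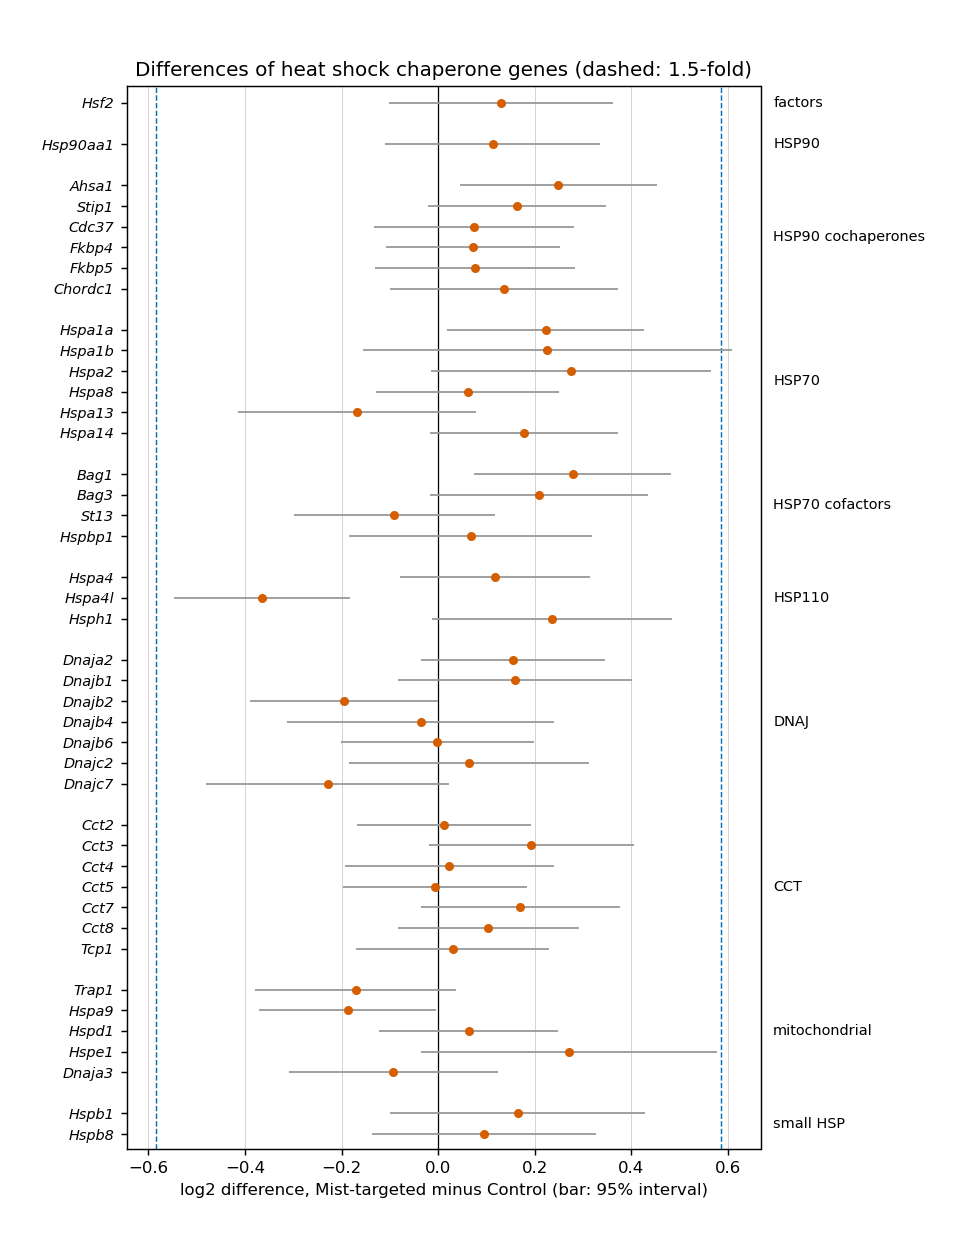
Log2 difference, Mist-targeted minus Control, of the 42 chaperone genes by class; points are limma estimates and bars their 95% intervals (n = 3 arrays per group). Dashed lines stand at 1.5-fold, and 41 of the 42 intervals lie between them.

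The 3 Mist-targeted values lay all above the 3 Control values for 12 chaperone genes (9.99% of all genes) and all below them for 4 (9.97%). The 16 genes are 38.1% of the 42, and over all genes the groups lay apart in 20.0%. Most chaperone genes were bright on these arrays, and bright genes lay apart more often. Among genes with a mean log2 level above 7, a limit chosen after the values were seen, 37.7% lay apart, against 14 of the 33 chaperone genes above that level. In the same 33 genes 24 had a positive difference, where 54.2% of all genes above that level did, and 4 had an unadjusted p under 0.05, where 21.2% did. Among genes above that level the median size of a difference, signs left aside, was 0.13 for the chaperones and 0.12 for all genes. With signs kept, the median there was 0.072 for the chaperones and 0.017 for all genes.

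**Figure D2:**
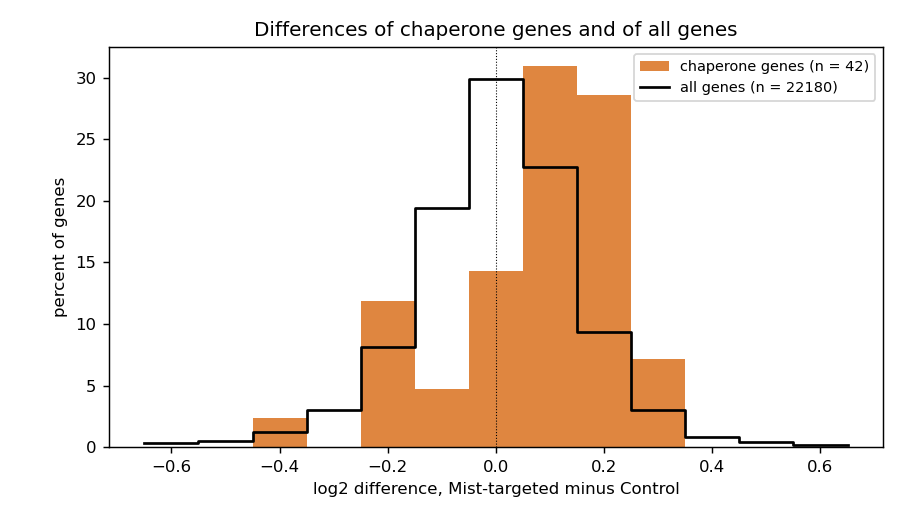
Percent of genes per interval of the log2 difference, Mist-targeted minus Control, for the 42 chaperone genes (bars) and for all 22180 genes (line; 198 of them lie outside the range drawn). The chaperone genes are spread over about the same range as most genes, with more of them between 0.05 and 0.25.

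**Figure D3:**
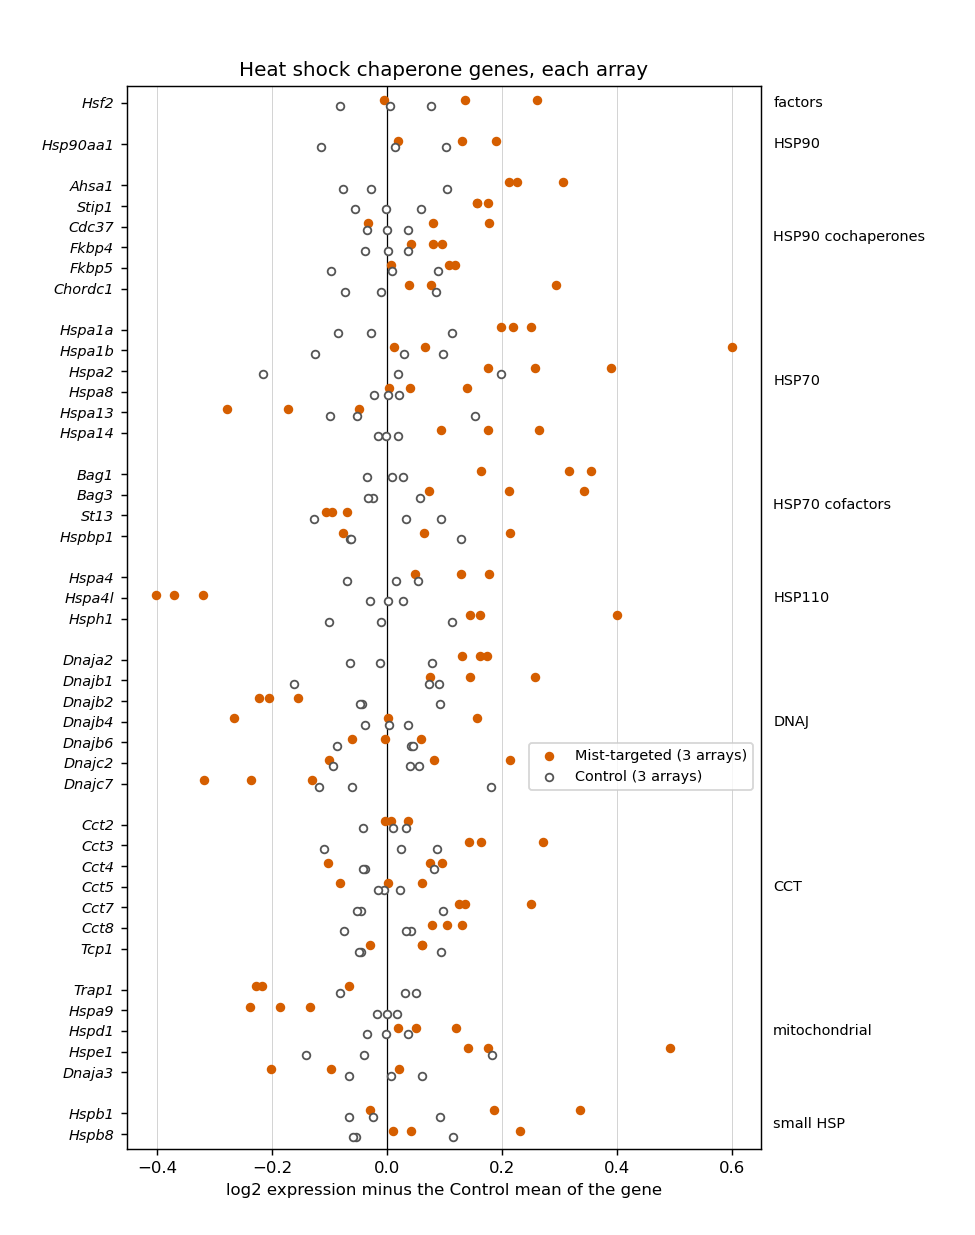
Log2 expression of each chaperone gene on each array, minus the mean of its Control arrays. Filled points are the 3 Mist-targeted arrays and open points the 3 Control arrays; the 2 sets are farthest apart for Hspa4l, on the lower side.

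Promoter sequences were examined because HSF1 acts through heat shock elements, repeats of the unit NGAAN in alternating orientation. RefSeq windows from 250 bases before to 50 bases after a transcript start (build GRCm38.p6) were held for 36 of the 45 genes. The letters TTCNNGAANNTTC, which spell 3 such units, were searched on both strands and stood in the windows of 5 of the 36 genes, or 13.9%, against 0.603% of all windows and 0.662% of all genes. The 5 genes were Chordc1, Hsph1, Dnajb6, Hspd1 and Hspe1. The shorter letters TTCNNGAA or GAANNTTC, each its own reverse complement and contained in the longer ones, stood in 16 of the 36 genes, or 44.4%, against 15.1% of all windows and 17.0% of all genes. These matches are a description of the windows and not of binding.

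The stretches with the longer letters are shown, with every match to either set of letters in capitals. Positions count from the transcript start, with the first base at 1 and the base before it at -1. The start is that of the window shown, and a gene can have further starts: Hsph1 and Dnajb6 each had 2 windows, and the longer Hsph1 match stood at 37 to 49 from one start and at 16 to 28 from the other. Hspd1 and Hspe1 lie head to head, their windows overlap by 285 bases, and the same matches serve both, so that stretch is shown on the strand of Hspe1, from -120 to -21 (chr1:55088028-55088127, plus strand). The Dnajb6 stretch runs from -80 to -21 (chr5:29735818-29735877, plus strand). The Hsph1 stretch runs from 29 to 50 (chr5:149636287-149636308, minus strand) and that of Chordc1 from -10 to 20 (chr9:18292257-18292286, plus strand).
Hspe1: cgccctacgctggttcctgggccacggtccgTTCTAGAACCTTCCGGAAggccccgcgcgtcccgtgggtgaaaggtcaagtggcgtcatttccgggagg
Dnajb6: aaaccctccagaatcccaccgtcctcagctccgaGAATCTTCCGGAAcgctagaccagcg
Hsph1: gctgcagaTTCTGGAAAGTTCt
Chordc1: caaccgGAACGTTCGGGAAAATTCCTGAAg

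The 5 genes with the longer letters had differences from -0.0016 to 0.27 with a median of 0.14, and 4 of them were positive. The 30 genes read whose windows lacked the letters had a median of 0.11, from -0.36 to 0.28, and 23 were positive. Only exact letters were counted, and the 30 include Hspa1a, Hspa1b and Bag3, which carry the shorter letters. The split is thus by letters and does not separate genes that HSF1 induces from others. For the shorter letters the medians were 0.095 over 15 genes with them and 0.12 over 20 without. The genes with and without either set of letters thus covered overlapping ranges.

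Hspa1a and Hspa1b are shown beside each other because their windows were identical at 296 of 300 positions, and Hspa4l because its difference was the farthest from 0. Each stretch runs from -120 to -1. They lie at chr17:34972157-34972276 (Hspa1a, minus strand), chr17:34959239-34959358 (Hspa1b, minus strand) and chr3:40745493-40745612 (Hspa4l, plus strand). Capitals mark the match of each Hspa1 gene to GAANNTTC, and the Hspa4l stretch held no match.
Hspa1a: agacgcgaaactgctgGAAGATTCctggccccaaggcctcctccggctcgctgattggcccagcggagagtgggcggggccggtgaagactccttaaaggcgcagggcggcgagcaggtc
Hspa1b: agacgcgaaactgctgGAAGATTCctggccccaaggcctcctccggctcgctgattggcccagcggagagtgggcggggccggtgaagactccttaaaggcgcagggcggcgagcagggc
Hspa4l: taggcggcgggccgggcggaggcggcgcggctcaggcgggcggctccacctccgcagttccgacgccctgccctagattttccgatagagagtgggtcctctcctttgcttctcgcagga

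Of the 2 heat shock factors in the set, Hsf2, which cooperates with HSF1, was read. Hsf2 had log2 levels of 7.99, 7.85 and 8.11 on the Mist-targeted arrays, against 7.86, 7.93 and 7.77 on the Control arrays. The groups overlapped, and the difference was 0.13 ± 0.10 (SE, n = 3 per group; limma, adjusted p = 0.76). It was 0.065 without Mist-targeted replicate 3. The related factor genes Hsf4 and Hsf5, outside the set and named after their values were seen, differed by 0.092 and 0.069 with overlapping groups (limma, adjusted p = 0.84 and 0.91).

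The stress-inducible cytosolic HSP90 gene, Hsp90aa1, had no detectable difference. Its levels were 8.64, 8.47 and 8.58 in Mist-targeted cells, against 8.55, 8.34 and 8.46 in Control cells, and the difference was 0.11 ± 0.095 (limma, adjusted p = 0.79). The array of Mist-targeted replicate 2 lay below that of Control replicate 1, and the difference was 0.055 without Control replicate 2.

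All 6 HSP90 cochaperone genes had positive differences, between 0.072 and 0.25 with a median of 0.11, and 0 of the 6 passed the test. Ahsa1, which stimulates the ATPase of HSP90, stood at 8.92, 9.01 and 8.93 in Mist-targeted cells, against 8.63, 8.81 and 8.68 in Control cells. The groups lay apart, and the difference was 0.25 ± 0.087 (1.19-fold; limma, adjusted p = 0.39). Stip1, which bridges HSP70 and HSP90, had levels of 9.96, 9.94 and 9.94 in Mist-targeted cells and of 9.84, 9.72 and 9.78 in Control cells. These groups lay apart as well, with a difference of 0.16 ± 0.079 (limma, adjusted p = 0.58). The immunophilin gene Fkbp4 was the third whose groups did not overlap, by a narrow margin, with a difference of 0.072. Fkbp5, an immunophilin gene induced by glucocorticoids, differed by 0.077, the kinase adaptor gene Cdc37 by 0.074 and Chordc1, whose start site carries the letters shown above, by 0.14 ± 0.10, and the groups of these 3 overlapped.

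Among the 6 HSP70 genes 5 had positive differences, with a median of 0.20, and 0 passed. The inducible genes Hspa1a and Hspa1b encode nearly the same protein. Whether their probe sets detect each other's transcripts was not tested. A further probe set, listed with both genes, was not read. Hspa1a had levels of 3.80, 3.82 and 3.85 in Mist-targeted cells, against 3.71, 3.57 and 3.51 in Control cells, and the difference was 0.22 ± 0.087 (limma, adjusted p = 0.46). All 6 of these values lay below the median of every array (4.47 to 4.50), and no measure of background was at hand, so the size of this difference is uncertain. Hspa1b had levels of 4.86, 5.39 and 4.81 in Mist-targeted cells and of 4.67, 4.82 and 4.89 in Control cells. Mist-targeted replicate 2 stood above the rest and the other 2 Mist-targeted values lay within the Control range. The difference of Hspa1b was 0.23 ± 0.16 (limma, adjusted p = 0.74), and it was 0.039 without that replicate.

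The constitutive HSP70 gene Hspa8 hardly differed between the groups. Its levels were 10.69, 10.65 and 10.79 in Mist-targeted cells, against 10.63, 10.65 and 10.67 in Control cells, and the difference was 0.061 ± 0.081 (limma, adjusted p = 0.89), or 0.022 without Mist-targeted replicate 3. The other 3 probe sets listed with Hspa8 had differences of 0.12, 0.031 and 0.032; whether they measure related copies was not checked. Hspa2, best known from the testis, had levels of 4.64, 4.56 and 4.77 in Mist-targeted cells and of 4.17, 4.58 and 4.40 in Control cells, near the array medians. Its groups overlapped at a difference of 0.27 ± 0.12 (limma, adjusted p = 0.54), which was 0.17 without Control replicate 1. Hspa14, which forms the ribosome-associated complex with the DNAJ protein encoded by Dnajc2, differed by 0.18, with groups that lay apart. Hspa13, a microsome-associated member, was the only HSP70 gene with a negative difference, at -0.17 ± 0.11 (limma, adjusted p = 0.70), and at -0.091 without Control replicate 1.

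Of the 4 HSP70 cofactor genes 3 had positive differences and 0 passed. Bag1, a nucleotide exchange factor that links HSP70 to the proteasome, had levels of 8.85, 9.04 and 9.0 in Mist-targeted cells, against 8.69, 8.71 and 8.65 in Control cells. Every Mist-targeted value exceeded every Control value, and the difference was 0.28 ± 0.087 (1.21-fold; limma, adjusted p = 0.32). Bag3, an HSF1-induced partner of HSPB8 in selective autophagy, had levels of 7.69, 7.82 and 7.96 in Mist-targeted cells and of 7.59, 7.58 and 7.67 in Control cells. Those groups lay apart narrowly, at 0.21 ± 0.097 (limma, adjusted p = 0.55). The exchange factor gene Hspbp1 differed by 0.067, and St13, which stabilises the ADP-bound state of HSP70, by -0.091; both had overlapping groups.

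Within the HSP110 class the 3 genes went in different directions. Hspa4l, a nucleotide exchange factor of HSP70, had levels of 7.52, 7.48 and 7.57 in Mist-targeted cells, against 7.91, 7.86 and 7.89 in Control cells. The gap between the groups was several times the spread within either, and the difference was -0.36 ± 0.078, or 1.29-fold lower (limma, adjusted p = 0.14). When limma was run on the listed probe sets only, a choice known to raise the number of calls on these arrays (2.9% of genes in all, 1.8% on the lower side), Hspa4l fell with an adjusted p of 0.037. It was the only one of the 42 chaperone genes to pass there. Without each array in turn its difference stayed between -0.39 and -0.35.

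The other 2 HSP110 genes were on the higher side. The stress-inducible Hsph1 had levels of 9.17, 9.41 and 9.15 in Mist-targeted cells and of 9.12, 8.91 and 9.0 in Control cells, with 1 high array in the Mist-targeted group, replicate 2. The groups lay apart by a narrow margin, at 0.24 ± 0.11 (limma, adjusted p = 0.54), and the difference was 0.15 without that replicate. Hspa4, with levels of 10.38, 10.33 and 10.25 in Mist-targeted cells and of 10.13, 10.22 and 10.26 in Control cells, differed by 0.12 ± 0.084 with overlapping groups (limma, adjusted p = 0.74).

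**Figure D4:**
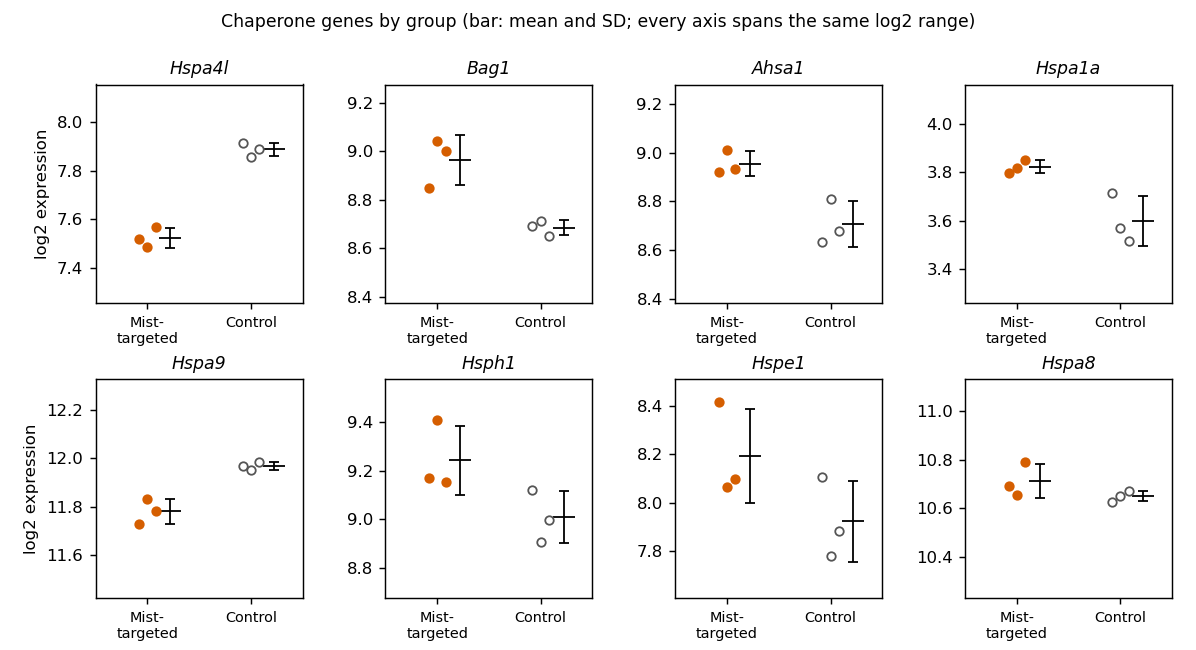
Log2 expression of 8 chaperone genes in Mist-targeted cells (filled points, left) and Control cells (open points, right), with mean and SD of 3 arrays; each panel spans the same log2 range around its own centre. Hspa4l and Hspa9 are lower on every Mist-targeted array than on any Control array, and Bag1, Ahsa1, Hspa1a and Hsph1 higher. The groups of Hspe1 and Hspa8 overlap, and 0 of the 8 passed the adjusted test. The 8 genes were picked for display and are not typical of the set. Groups lay apart for 16 of the 42 chaperone genes, 20.0% of all genes and 37.7% of genes with a mean level above 7.

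The 7 DNAJ genes showed no shared direction, with 3 positive and 4 negative differences and a median of -0.0016, and 0 passed. Dnajb1, the main inducible partner of HSP70 in the cytosol, had levels of 6.62, 6.55 and 6.74 in Mist-targeted cells, against 6.55, 6.57 and 6.32 in Control cells. The groups overlapped at 0.16 ± 0.10 (limma, adjusted p = 0.71), and at 0.077 without Control replicate 3. Dnajb2, a DNAJ protein known from neurons, had levels of 4.67, 4.65 and 4.72 in Mist-targeted cells and of 4.83, 4.97 and 4.83 in Control cells, close to the array medians. Its groups lay apart on the lower side, at -0.19 ± 0.083 (limma, adjusted p = 0.51). Dnajc7, which binds both HSP70 and HSP90, had levels of 7.95, 8.13 and 8.03 in Mist-targeted cells and of 8.20, 8.44 and 8.15 in Control cells, at -0.23 ± 0.11 (limma, adjusted p = 0.57), and at -0.14 without Control replicate 2. Its groups were apart by less than the spread of either. Dnaja2, a substrate-binding partner of HSP70, differed by 0.15 with groups apart on the higher side, and Dnajc2, of the ribosome-associated complex, by 0.064, Dnajb4 by -0.037 and Dnajb6, which suppresses aggregation, by -0.0016, all 3 with overlapping groups.

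The 7 CCT subunit genes had a median difference of 0.030, and 0 passed. Cct3 had levels of 9.97, 10.10 and 10.00 in Mist-targeted cells, against 9.72, 9.85 and 9.92 in Control cells, at 0.19 ± 0.091 (limma, adjusted p = 0.56). Cct7 had levels of 9.76, 9.89 and 9.77 in Mist-targeted cells and of 9.59, 9.74 and 9.59 in Control cells, at 0.17 ± 0.088 (limma, adjusted p = 0.61). Both had groups apart on the higher side, as did Cct8, which differed by 0.10. The other 4 subunits lay close to 0 with overlapping groups: Tcp1, which encodes subunit alpha, differed by 0.030, Cct4 by 0.023, Cct2 by 0.013 and Cct5 by -0.0067. The 7 subunits in the set thus had differences from -0.0067 to 0.19, with standard errors of 0.077 or more. The subunit genes Cct6a and Cct6b, outside the set and named after their values were seen, differed by 0.086 and -0.054. Their groups overlapped (limma, adjusted p = 0.82 and 0.95).

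Among the 5 mitochondrial chaperone genes, 3 were on the lower side and 2 on the higher, and 0 passed. Hspa9, the HSP70 of the matrix and motor of protein import, had levels of 11.73, 11.83 and 11.78 in Mist-targeted cells, against 11.97, 11.95 and 11.99 in Control cells. All Mist-targeted values were below all Control values, and the difference was -0.19 ± 0.078 (1.14-fold lower; limma, adjusted p = 0.50). Trap1, the mitochondrial HSP90, differed by -0.17 ± 0.089, and Dnaja3, the DNAJ partner of HSPA9, by -0.093 ± 0.092, each with overlapping groups.

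The chaperonin pair Hspd1 and Hspe1, encoding HSP60 and HSP10 from the head-to-head promoter shown above, had positive differences. Hspd1 had levels of 9.91, 9.98 and 9.88 in Mist-targeted cells and of 9.86, 9.82 and 9.90 in Control cells, at 0.063 ± 0.079 (limma, adjusted p = 0.88). Hspe1 had levels of 8.42, 8.06 and 8.10 in Mist-targeted cells and of 8.11, 7.78 and 7.88 in Control cells, at 0.27 ± 0.13 (limma, adjusted p = 0.58). For Hspe1, replicate 1 was the highest array of each group and the groups overlapped. The difference of Hspe1 was 0.16 without Mist-targeted replicate 1, and that of Hspd1 was 0.035 without Mist-targeted replicate 2. The 95% intervals, -0.12 to 0.25 for Hspd1 and -0.037 to 0.58 for Hspe1, overlapped, and the difference between the 2 genes was not tested.

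The small heat shock protein genes, whose products hold unfolded proteins without ATP, were dim on all arrays. Hspb1 had levels of 3.93, 4.30 and 4.15 in Mist-targeted cells and of 3.90, 4.05 and 3.94 in Control cells, at 0.16 ± 0.11 (limma, adjusted p = 0.73), and at 0.078 without Mist-targeted replicate 2. Hspb8 had levels of 3.86, 3.83 and 4.05 in Mist-targeted cells and of 3.77, 3.76 and 3.94 in Control cells, at 0.095 ± 0.10 (limma, adjusted p = 0.85), and at 0.026 without Mist-targeted replicate 3. The groups of both genes overlapped below the median of every array.

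Class medians of the difference are set side by side for the classes with 3 or more genes read. They were 0.20 for HSP70 genes, 0.14 for HSP70 cofactors, 0.12 for HSP110, 0.11 for HSP90 cochaperones, 0.030 for CCT, -0.0016 for DNAJ and -0.093 for mitochondrial genes. The 3 largest HSP70 differences were those of its 3 dimmest genes, Hspa2 (0.27), Hspa1b (0.23) and Hspa1a (0.22). Its brighter genes Hspa14, Hspa8 and Hspa13 differed by 0.18, 0.061 and -0.17, so the HSP70 median leans on dim genes. The HSP110 median was the value of Hspa4, and Hspa4l of the same class lay at -0.36. On the single arrays, relative to the Control mean of each gene, the HSP70 median was 0.13, 0.13 and 0.16 in Mist-targeted cells, against -0.019, 0.00011 and 0.019 in Control cells. The CCT median was 0.095, 0.060 and 0.075 in Mist-targeted cells, against -0.0050, 0.0097 and -0.042 in Control cells. Both were higher on all 3 Mist-targeted arrays than on any Control array, as were the medians of the HSP90 cochaperones and of HSP110. Control arrays lie near 0 here because each gene is set against its own Control mean, single genes above a level of 7 already lay apart in 37.7%, and no such share was computed for medians of other gene groups, so the separation is given as a description. The mitochondrial median was -0.20, 0.021 and -0.097 in Mist-targeted cells, against 0.0063, -0.067 and 0.031 in Control cells, with arrays of both groups mixed. Leaving out each array in turn moved these medians between 0.15 and 0.19 for HSP70, 0.068 and 0.21 for HSP70 cofactors (the lowest without Mist-targeted replicate 3), 0.083 and 0.15 for HSP110, 0.087 and 0.14 for HSP90 cochaperones, 0.015 and 0.085 for CCT, -0.045 and 0.056 for DNAJ, and -0.15 and -0.038 for mitochondrial genes. Classes were not tested against each other.

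**Figure D5:**
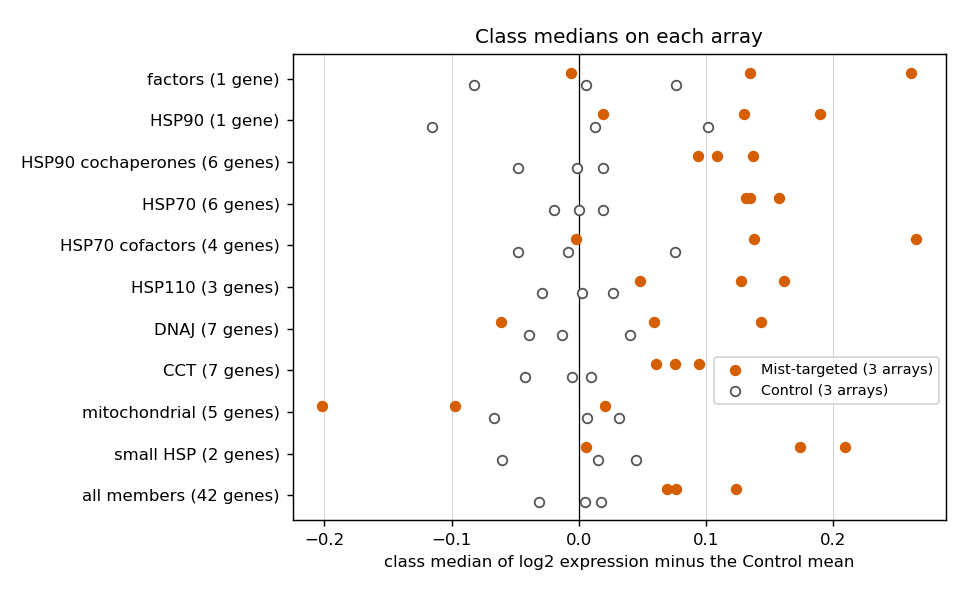
Median, over the genes of a class, of log2 expression minus the Control mean of the gene, on each of the 3 Mist-targeted arrays (filled) and 3 Control arrays (open). The medians of HSP70 genes, HSP90 cochaperones, HSP110, CCT and all 42 genes lie higher on every Mist-targeted array than on any Control array, and those of the other classes do not. Within HSP110 the gene Hspa4l lies lower on every Mist-targeted array. Within HSP70 the 3 largest differences are those of the 3 dimmest genes, Hspa2, Hspa1b and Hspa1a.

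Folding genes outside the set showed no called difference either. Of 65 read among 71 listed (prefoldin, further DNAJ and small heat shock proteins, HSP90 cofactors, mitochondrial proteases, Hspa5 and Hsp90b1 of the endoplasmic reticulum), 0 rose and 0 fell with limma. At an unadjusted p under 0.05 there were 7, or 10.8%, against 11.0% of all genes. Of the 65 differences 33 were positive, or 50.8% against 52.2% of all genes, and the median was 0.0019. Lonp1, the protease of the mitochondrial matrix, had levels of 8.21, 8.62 and 8.50 in Mist-targeted cells, against 9.06, 8.97 and 9.02 in Control cells. Its groups lay well apart, with a difference of -0.57 ± 0.12 (1.49-fold lower; limma, adjusted p = 0.13). Hspb7, a small heat shock protein gene of heart and muscle, had levels of 5.75, 5.96 and 5.72 in Mist-targeted cells and of 6.60, 6.39 and 6.15 in Control cells, at -0.57 ± 0.13 (limma, adjusted p = 0.17). With listed probe sets only, Lonp1 and Hspb7 fell with adjusted p values of 0.015 and 0.027. The histone cochaperone gene Dnajc9 differed by 0.30 ± 0.079, Dnajc18 by -0.36 ± 0.11, Dnajc27 by -0.27 ± 0.10 and the mitochondrial import gene Dnajc15 by 0.25 ± 0.098; the lowest adjusted p of these 4 was 0.22.

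Over all probe sets, pairs of arrays of the same group correlated at 0.988 to 0.991, and pairs from different groups at 0.986 to 0.989. All 8 macrophage markers (such as Adgre1, Cd68, Csf1r and Lyz2) were above every array median. Of the 21 markers of epithelial cells, fibroblasts, neutrophils, B cells, T cells and NK cells that were read, 4 were above it, and the highest of them, Nkg7, had a mean of 5.04. Mean levels of the macrophage list ranged from 10.42 to 10.51 on Mist-targeted arrays and from 10.49 to 10.55 on Control arrays, and 0 of its genes passed the test (limma). Of the 8, 3 had an unadjusted p under 0.05, or 37.5% against 21.2% of all genes above a level of 7, with 1 on the higher side and 2 on the lower. The annotation used here names no probe set Mist, so the level of the target was not analysed here.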

How the data were processed

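The authors deposited log2 values, a column for each array. RMA and Partek stand in the submitters' processing notes with no version, setting or role. RMA draws arrays to a common distribution, so a change shared by most transcripts would be reduced. Per the labels' protocols, column-purified, DNase-treated total RNA was labelled with biotin. The values (2.50 to 14.1) were used as deposited, and 0 sample columns were left out.

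Probe sets were named from the platform annotation (23521 of 41345 with 1 gene, 1814 with several, 16010 not listed). All 42 genes read matched the RefSeq gene table (GRCm38.p6). A gene was read at 1 probe set, listed with it alone and highest in mean over the 6 arrays. Differences, SE and intervals come from limma 3.58.1 in R 4.3.3 (two-sided moderated test by lmFit then eBayes, with group alone in the model, prior degrees of freedom 3.48), with Benjamini-Hochberg adjustment over 41345 probe sets; the fit was tested on simulated data. An exact permutation test of 3 against 3 arrays was not used, since it cannot go below p = 0.1. No source says that replicates are separate cultures, so the p-values may reflect technical spread alone. The number of arrays limits the precision.

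The genes and lists were chosen with earlier results of these data known. Values on every array are given for the 2 genes of each class with the smallest p and for Hsp90aa1, Hspa1a, Hspa1b, Hspa8, Hsph1, Dnajb1, Hspd1, Hspe1 and Hspb1, and Hspa4 was added after its values were seen. Of the other folding genes the 6 with the smallest p are named. Hsf4, Hsf5, Cct6a and Cct6b were added after their values were seen. Tables and figures were made with pandas 2.3.3 and matplotlib 3.10.9 in Python 3.11.15.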

Additional observations from a re-analysis of the deposited data

How the results depend on the processing

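The count of 0 chaperone genes called was the same under 14 of 15 alternatives: the replicate block, no moderation, a trended and robust eBayes, array weights, arrays centred on their medians, quantile normalization, a filter on the dimmest 40% of probe sets, probe sets averaged per gene, and without each of the 6 arrays. Several of these fits called few probe sets of any kind, so a 0 there says little about chaperones: the block and no moderation called 0 of 41345 (4368 and 4106 at an unadjusted p under 0.05), and the fits without 1 array called 2 to 40, against 105 with all arrays. Limma on listed probe sets only called 1 chaperone gene (Hspa4l, difference -0.36) and 2 other folding genes (Lonp1 and Hspb7), among 721 probe sets called. That fit tested fewer probe sets (25335) and had prior degrees of freedom of 7.66 against 3.48, and the cause was not tested. The 40% filter, with 24807 tested, called 0 of the 39 chaperone genes that it kept. Over the alternatives the lowest adjusted p among the 42 genes ranged from 0.037 to 0.37. At an unadjusted p under 0.05 there were 2 to 12 of the 42 genes. The 12 came from the trended and robust eBayes, where 4165 of 41345 probe sets did so. Listed probe sets only gave 11 genes, against 3439 of 25335 probe sets. The fits without Control replicate 3 and without Mist-targeted replicate 2 gave 2 genes each, against 3342 and 4162 of 41345 probe sets. Whether same-numbered arrays of the groups were handled together is not stated. Correlations between the deviations of same-numbered arrays were 0.033 to 0.20, and those of other pairs across the groups were -0.15 to 0.060. Of the 6 arrays, 5 correlated best with their own number, and whether replicates of a number share a batch was not tested. With the replicate block 0 of the 42 genes were called, as were 0.0% of all genes, and 5 had an unadjusted p under 0.05, against 10.8% of all genes. The median over all 42 genes was 0.063 to 0.096 without single arrays. Class medians that moved beyond the spread between arrays were those of HSP70 without the dimmest 40% of probe sets (0.18, as Hspa1a drops out) and without single arrays (0.15 to 0.19), of CCT with the mean of all probe sets (0.056) and without single arrays (0.015 to 0.085), and of HSP90 cochaperones without single arrays (0.087 to 0.14). The arrays give no measure of background, which limits Hspa1a, Hspb1 and Hspb8, below every array median.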

Other observations

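Chaperone genes with more than 1 probe set of their own gave small differences on the further ones too. The second Tcp1 probe set, at a mean level of 6.46 in Mist-targeted cells and 6.38 in Control cells, differed by 0.082 ± 0.11 (SE; limma, adjusted p = 0.89). The second Hspb1 probe set differed by 0.063 ± 0.12 (limma, adjusted p = 0.93). Of the further Dnaja3 probe sets, both below every array median, 1 differed by 0.047 and 1 by -0.12.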
